A study of Homo sapiens with 9 samples.

Results

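γH2AX peaks of cells treated with hydroxyurea (HU) were compared with those of cells treated with aphidicolin (APH), 2 drugs that stall replication forks in different ways. The comparison used the 2 HU lists and the 2 APH lists, which held 181480 of the 213253 autosomal peaks of the 8 lists of the study. All cells were of 1 human B-lymphocyte line, named GM09027A in the sample labels and GM07027 in the methods of the study, and each list came from a separate treatment and immunoprecipitation. Cells received 2 mM HU for 24 h, 0.1 μg/mL APH for 24 h, 200 μM methyl methanesulfonate (MMS) for 24 h, or no drug, with 2 lists each. γH2AX, histone H2AX phosphorylated next to stalled or broken forks, was precipitated with an antibody, and a peak is a region where the sequenced DNA exceeded the input background. With 1 line and 1 dose of each drug, a difference between the drugs cannot be told apart from a difference between the strengths of the treatments.

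HU inhibits ribonucleotide reductase and so depletes the deoxynucleotides that all forks draw on. APH binds the replicative DNA polymerases of the B family directly, and at low doses it slows forks without stopping them. Low-dose APH is the classical inducer of common fragile sites (CFSs), chromosome regions that break under partial inhibition of replication. Many CFSs lie in very long genes that replicate late and hold few origins. FHIT and WWOX span the best known of them.

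The HU lists held 79891 and 69922 autosomal peaks and the APH lists 17658 and 14009. HU peaks had median widths of 764 and 743 bp and covered 89.6 and 73.8 Mb, and APH peaks had median widths of 562 and 555 bp and covered 12.4 and 9.64 Mb. All lists ended at the same uncorrected threshold, but 78.4% and 60.3% of HU peaks had a q-value of at most 0.05 and only 97 and 183 APH peaks did (0.549% and 1.31%). Of the APH peaks, 1838 and 1865 overlapped a peak of the other APH list, and of the HU peaks 34576 and 35631 overlapped one of the other HU list. These numbers are not set against each other, since the HU lists cover far more bases to meet. The read depth behind the lists is unknown. To set lists of such unequal size side by side, each was expressed as the share of its own peaks in a 1 Mb bin, a chromosome or a protein-coding gene. A feature is called HU above or APH above where both lists of that drug had larger shares than both lists of the other. With 2 lists against 2, the two-sided exact permutation test cannot go below p = 0.3333, so no difference here can pass a threshold of 0.05, and each count is read against the percentage of all features called the same way.

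Both drugs left parts of the genome nearly free of peaks. Although the HU lists were larger, 891 and 909 of the 2765 bins held no HU peak (32.2% and 32.9%), against 846 and 774 bins with no APH peak (30.6% and 28.0%). The most crowded bins that together held 50% of the peaks numbered 315 and 291 under HU and 356 and 409 under APH. Across bins, the shares of the HU lists had a Spearman correlation of 0.970 with each other, the APH lists of 0.865, and HU with APH lists of 0.757 to 0.785. By Pearson's correlation, which follows the crowded bins, HU with APH lists gave 0.447 to 0.516. APH with untreated lists gave 0.657 to 0.812 and HU with untreated lists 0.257 to 0.330. These values describe bins that share base composition and gene content and are not independent.

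The sequences below are the middle 200 bp of single peaks, given as examples for each drug and not as typical of its list. They are in GRCh38 on the plus strand, in lower case, and a run of at least 10 A or 10 T would be in capitals. The first is from a peak in RAB11A (chr15:65842692-65854381), among the genes with the widest margin for HU. The others are from peaks in WWOX (chr16:78670075-78674006) and NXN (chr17:816722-817012), the genes with the widest margin for APH. None of the 3 stretches overlaps an exon, so all lie in introns.

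RAB11A (HU): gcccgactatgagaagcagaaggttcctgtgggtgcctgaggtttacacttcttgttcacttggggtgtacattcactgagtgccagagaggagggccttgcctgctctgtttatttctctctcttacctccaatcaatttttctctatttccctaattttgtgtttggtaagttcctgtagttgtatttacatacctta

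WWOX (APH): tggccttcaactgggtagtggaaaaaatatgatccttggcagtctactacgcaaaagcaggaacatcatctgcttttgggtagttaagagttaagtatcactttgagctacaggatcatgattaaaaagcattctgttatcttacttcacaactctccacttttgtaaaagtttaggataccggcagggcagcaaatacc

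NXN (APH): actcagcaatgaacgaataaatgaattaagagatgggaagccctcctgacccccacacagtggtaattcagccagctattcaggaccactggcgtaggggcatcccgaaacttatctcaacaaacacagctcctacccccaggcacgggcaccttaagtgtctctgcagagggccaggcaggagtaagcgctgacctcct

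The RAB11A, WWOX and NXN stretches had 43.5%, 40% and 53.5% GC and no run. The WWOX and NXN peaks overlapped a peak in both lists of their drug and in no other list. The RAB11A peak, 11690 bp wide, overlapped 5 peaks of the second HU list and 1 of the second APH list.

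HU and APH peaks were distributed differently over gene-rich and gene-poor DNA. Bins were sorted by the number of protein-coding genes that start in them. In the 200 bins with at least 20 gene starts, which hold 7.21% of the assembled bases, lay 23.2% and 24.95% of HU peaks and 18.6% and 15.0% of APH peaks. The means were 24.1 ± 1.21% and 16.8 ± 2.56% (SD, n = 2), a difference of 7.28 percentage points. The lists of the drugs did not overlap, and the untreated lists, with 24.5% and 20.2%, lay within and below the HU range. In bins with 10 to 19 starts the means were 34.1 ± 0.151% under HU and 27.4 ± 0.938% under APH. With 5 to 9 starts they were 29.8 ± 0.918% and 31.1 ± 1.87%, and the lists overlapped.

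In gene-poor DNA the order was turned. Bins with 1 to 4 starts held 12.1% and 11.5% of HU peaks and 21.2% and 23.9% of APH peaks, from 37.5% of the assembled bases. The widest ratio was in the 418 bins in which no gene starts. There the HU lists had 215 and 166 peaks, or 0.269% and 0.237%, and the APH lists, though several times smaller, had 413 and 269 peaks, or 2.34% and 1.92%. The mean share under APH was 2.13 ± 0.296% and under HU 0.253 ± 0.0224% (SD, n = 2), with 1.59 ± 0.531% in untreated cells and 2.07 ± 0.186% under MMS. The HU lists thus lay below those of the other 3 conditions in this class. The APH lists overlapped the range of the other 2. Of the APH peaks in this class, 122 and 36 lay in a single bin inside FHIT, which held no HU peak. Without peaks in FHIT and WWOX, a step added after the values were seen, the difference of means was -1.42 percentage points and not -1.88.

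**Figure D1:**
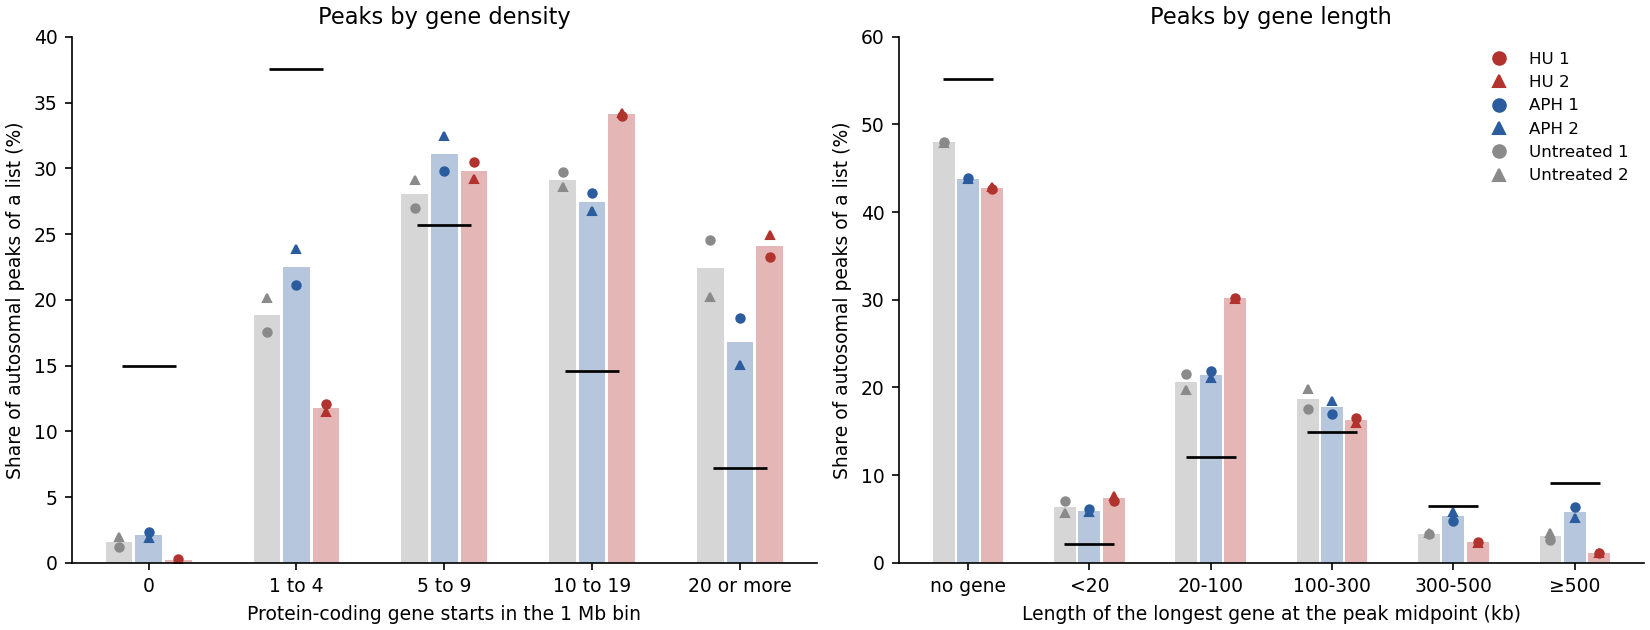
Share of the autosomal peaks of each list (y axis, percent) by the number of gene starts in the 1 Mb bin (left) and by the length of the longest protein-coding gene at the peak midpoint in kb (right). Points are the 2 lists of a condition, bars their mean, and black lines the share of assembled bases. HU points lie above APH points in bins with at least 10 starts and in genes under 100 kb, and below them in bins with under 5 starts and in genes of at least 300 kb.

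Counted bin by bin, HU was above in 660 of 2765 bins (23.9%) and APH in 826 (29.9%). The share of bins with HU above was 1.91% in the class with no gene start, 11.01% with 1 to 4 starts, 30.7% with 5 to 9, 49.1% with 10 to 19 and 61.0% with at least 20. APH was above in 13.4%, 36.1%, 35.1%, 26.8% and 19.5% of bins in the same order. Neither drug was above in 84.7%, 52.9%, 34.1%, 24.1% and 19.5%. The shares of the drugs are therefore to be compared within a class and not across classes. The HU-above bins had a median of 9 gene starts and the APH-above bins of 4. Among the 955 bins with at least 5 peaks expected in the smallest list (from the mean share of the 4 lists), the Spearman correlation of the log2 ratio of HU to APH with the number of gene starts was 0.26. The correlation of that ratio with the GC content of the bin was -0.23 and with the length of the longest gene in it -0.18. The split between HU-above and APH-above bins depended on which peaks and bins were used. It was 636 to 86 when the fold enrichment had to reach 3, 1091 to 382 among peaks found in both replicates, and 422 to 816 among equal numbers of the strongest peaks. Among the 955 bins with at least 5 expected peaks it was 484 to 291. The larger of the 2 counts therefore cannot be assigned to a drug.

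The APH-above bins differed from the HU-above bins in their place on the chromosome. Of the APH-above bins, 127 (15.4%) lay within 5 Mb of an end of the chromosome, against 29 (4.39%) of the HU-above bins, 48 (3.75%) of the bins with neither above and 204 (7.38%) of all 2765 bins. Many of these end bins were dense in untreated cells too. The 127 bins held 13.5% of APH peaks and 3.17% of HU peaks, and they held 23.7% of untreated and 9.48% of MMS peaks (means of 2 lists). In the 699 other APH-above bins the shares were 34.0% under APH, 11.4% under HU, 20.1% in untreated cells and 26.7% under MMS. Both APH lists exceeded both untreated lists in 55 of the 127 end bins (43.3%). The background there was 67 of all 204 bins within 5 Mb of an end (32.8%). Among the 699 others both APH lists did so in 371 (53.1%), beside 588 of all 2561 bins further from an end (22.96%). Over all 2765 bins the count was 655 (23.7%). Of the 660 HU-above bins, both HU lists exceeded both untreated lists in 482 (73.0%), beside 857 of all bins (31.0%). Bins chosen for a high share of a drug are favoured in such counts, which are given as a description. The part of the untreated pattern in the APH lists was not tested beyond these counts.

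Among bins with at least 5 expected peaks, the 5 with the widest margin for HU were mostly poor in APH peaks. The first, on chromosome 2 from 171000001 to 172000000, holds 8 gene starts, among them TLK1, a kinase that acts on histone chaperones in S phase, and HAT1, a histone acetyltransferase. It had 104 and 100 HU peaks, 1 and 1 APH peaks, and no untreated peak. The pooled share under HU was 21.6 times that under APH, with a counting interval of 5.89 to 179 (95%, exact). On chromosome 1 from 101000001 to 102000000, with S1PR1, a sphingosine 1-phosphate receptor that guides the exit of lymphocytes from lymphoid organs, there were 84 and 70 HU peaks against 0 and 1 APH peaks. The bin of MYB, a transcription factor of blood progenitors, on chromosome 6 from 135000001 to 136000000, had 68 and 44 against 1 and 0. On chromosome 10 from 88000001 to 89000000, with FAS, a death receptor of lymphocytes, there were 93 and 69 against 2 and 1. The bin of BTG1, an antiproliferative gene of B cells, on chromosome 12 from 92000001 to 93000000, had 117 and 105 against 2 and 3. In these last 4 bins 3, 4, 10 and 3 genes start, among them also OLFM3, PDE7B, RNLS and EEA1. The genes named are examples, and the peaks were counted per bin and not assigned to them. The ratios of the last 4 bins lay between 9.39 and 32.6. The untreated lists had 0 to 2 peaks in each, at most 0.0462% of a list, against 0.0629% to 0.150% of the HU lists. Bins and genes were named for the width of their margin, so the ratios and intervals given for them describe that choice and test nothing.

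The 5 bins with the widest margin for APH were of 2 kinds. The first kind had 0 to 3 peaks in each untreated list and overlaps genes of at least 300 kb, FHIT and WWOX among them. On chromosome 3 from 60000001 to 61000000, wholly inside FHIT, there were 122 and 36 APH peaks and no HU peak, a share at least 63.9 times higher in the lower APH list when HU is set to 3 counts per list (118 times by the mean of the APH lists, which the first carries). Untreated lists had 0 and 2 peaks there. On chromosome 16 from 79000001 to 80000000, with the end of WWOX, there were 56 and 18 APH peaks and no HU peak (at least 31.9 times higher in the lower APH list and 55.4 times by the mean). The bin of CELF4, a neuronal RNA-binding protein, on chromosome 18 from 37000001 to 38000000, had 13 and 15 and no HU peak (at least 18.3 times in the lower list). The bin on chromosome 8 from 139000001 to 140000000, with part of TRAPPC9, a subunit of a vesicle trafficking complex, had 21 and 16 against 1 and 0. The second kind is the first 1 Mb of chromosome 2, with 80 and 69 APH peaks against 0 and 1 HU peaks. Here the untreated lists had 44 and 35 peaks, a share of 0.865 ± 0.0791% that exceeded the 0.473 ± 0.0279% under APH, and the MMS lists had 5 and 4.

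Over all bins together, HU had the larger share in short genes and APH in long ones. A peak was assigned to the longest of the 18385 protein-coding genes that hold its midpoint. Genes of 20 to 100 kb held 30.2% and 30.1% of HU peaks and 21.9% and 21.0% of APH peaks. Genes under 20 kb held 7.34 ± 0.390% under HU and 5.95 ± 0.253% under APH (SD, n = 2). The order of these short genes did not hold where they start in bins with under 5 starts. There, genes under 20 kb held 0.144% and 0.136% of HU peaks and 0.164% and 0.257% of APH peaks. Genes of 20 to 100 kb held 1.39 ± 0.0593% and 1.45 ± 0.286% there, with the lists overlapping. Shares in genes of 100 to 300 kb were close, with 16.3 ± 0.403% and 17.7 ± 1.03%, and peaks outside protein-coding genes made up 42.8 ± 0.156% and 43.8 ± 0.0724%.

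Long genes held few HU peaks. In the 303 genes of at least 500 kb, which span 9.14% of the assembled bases, there were 917 and 780 HU peaks and 1124 and 723 APH peaks. These are 1.15% and 1.12% of the HU lists and 6.37% and 5.16% of the APH lists, a difference of means of -4.63 percentage points. The untreated lists had 2.62% and 3.44% and the MMS lists 3.87% and 4.87%, between the lists of HU and those of APH. In genes of 300 to 500 kb the means were 2.34 ± 0.0778% under HU and 5.30 ± 0.739% under APH. The order held in every class of gene density for genes of at least 300 kb. HU and APH shares were 1.29% and 6.04% in bins with under 5 starts, 2.14% and 4.82% with 5 to 19 starts, and 0.0457% and 0.207% with at least 20 starts. Of the 303 longest genes, APH was above in 101 (33.3%) and HU in 25 (8.25%), whereas over all 18385 genes APH was above in 1482 (8.06%) and HU in 5103 (27.8%). Of the 5103 genes, 4068 had no peak in the much smaller APH lists. Without FHIT and WWOX, a step added after the values were seen, the shares in genes of at least 500 kb were 1.13 ± 0.0221% under HU and 4.49 ± 0.0680% under APH. The MMS lists then had 3.80% and 4.79%, on either side of the 4.54% and 4.44% of the APH lists, so the place of MMS below APH rested on these 2 genes, and the untreated lists had 2.51% and 3.37%.

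Within long genes the peaks also lay at different places. Each of the 767 genes of at least 300 kb was divided into 10 equal parts along its direction of transcription. The first part held 19.03% and 19.8% of the HU peaks in these genes and 10.8% and 11.6% of the APH peaks, where even spacing would give 10%. In the 6 parts in the middle the shares were 45.5% and 43.1% under HU and 53.7% and 50.5% under APH. The last part held 16.3 ± 0.513% and 16.2 ± 0.702%, with the lists overlapping. In the ninth part APH was above, with 10.2 ± 0.0484% under HU and 12.6 ± 1.21% under APH. HU peaks in long genes thus lay toward their start more than APH peaks did. Untreated lists had 7.42% and 10.9% in the first part, near or below the APH lists.

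**Figure D2:**
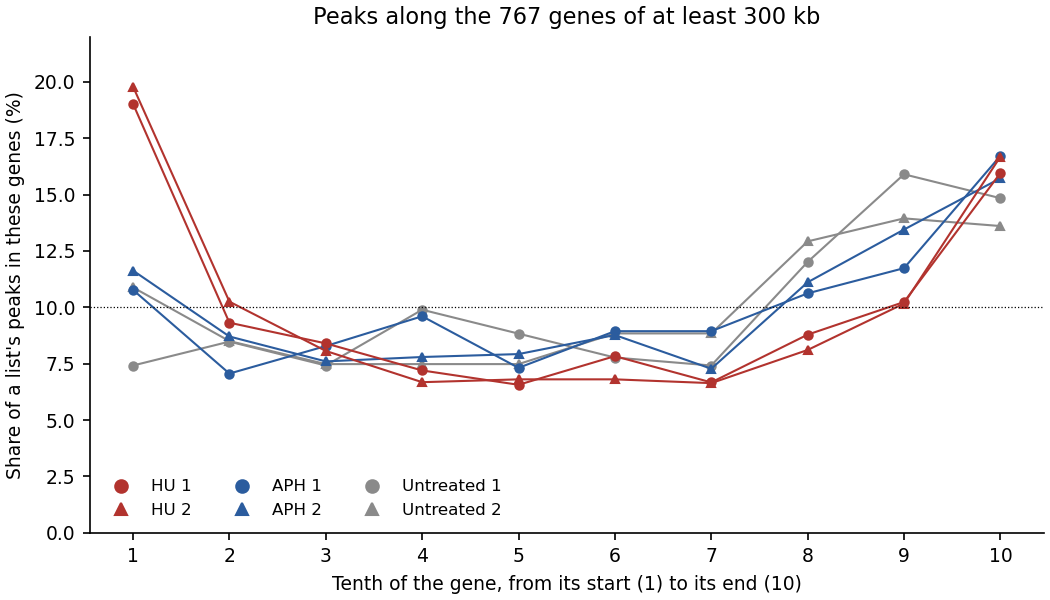
Share of the peaks of a list in genes of at least 300 kb (y axis, percent) by part of the gene, from 1 at its start to 10 at its end (x axis). Lines are single lists, and the dotted line is even spacing. Both HU lists stand at 19.03% and 19.8% in the first part, above all APH and untreated lists, and lie with APH in the last part.

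For single genes, 279 had at least 3 peaks expected in the smallest list by the mean share of the 4 lists. HU was above in 62 of them (22.2%) and APH in 157 (56.3%). The filter itself favours a difference: 132 of the 157 genes would have had under 3 expected peaks by the HU lists, and 44 of the 62 by the APH lists, so these genes passed through the drug in which they were high and their counts support nothing. The split was 101 to 36 at a minimum fold enrichment of 3 and 122 to 138 among peaks found in both replicates.

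WWOX, an oxidoreductase with tumor suppressor function, and FHIT, a nucleotide hydrolase lost in many tumors, were the genes with the most APH peaks among those named here. WWOX (chr16:78099400-79212667) had 160 and 53 APH peaks, no HU peak, and 5 and 1 untreated peaks. Its share was 0.642 ± 0.373% under APH, and the lower APH list, with 0.378%, was at least 94.0 times higher than HU at 3 counts per list. FHIT (chr3:59747277-61251459) had 163 and 48 APH peaks against 2 and 1 HU peaks, with a ratio of 333 (counting interval 112 to 1626). The APH replicates differed by more than 2 times in both genes, yet the lower of them stood far above both HU lists. MMS had 3 and 6 peaks in WWOX and 5 and 3 in FHIT. Only 8 of the peaks of the first APH list in these genes, and none of the second, had a q-value of at most 0.05.

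The other genes with a wide margin for APH had fewer peaks. PTPRG, a receptor tyrosine phosphatase next to FHIT, had 18 and 8 APH peaks and no HU peak. CELF4 had 11 and 10 and no HU peak, and SLC24A3, a sodium, potassium and calcium exchanger, had 9 and 6 and none. GRID1, a glutamate receptor of the delta family, had 15 and 11 against 1 and 0. In these 4 genes the untreated lists had 0 to 2 peaks each. DIP2C (chr10:274201-689668), near a chromosome end, had 30 and 24 APH peaks, no HU peak, and 5 and 6 untreated peaks. Its APH share of 0.171 ± 0.00101% was above the untreated 0.122 ± 0.0241%, and the lists did not overlap.

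In 3 other genes near chromosome ends the untreated lists overlapped the APH lists or lay above them. NXN (chr17:799310-979776), a redox regulator of Wnt signaling, had 49 and 48 APH peaks and no HU peak, but also 39 and 28 untreated peaks, a share of 0.732 ± 0.119% against 0.310 ± 0.0461% under APH. SH3YL1, which binds phosphoinositides and overlaps ACP1, had 8 and 8 APH peaks, no HU peak and 4 and 3 untreated peaks. CACNA1B, a subunit of neuronal calcium channels, had 22 and 12 APH peaks against 0 and 1 HU peaks, and 5 and 2 untreated peaks (0.105 ± 0.0275% under APH and 0.0754 ± 0.0413% untreated). At NXN and SH3YL1 both drugs lay below untreated cells, with HU at 0.

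The genes with the widest margin for HU were shorter than WWOX and FHIT and had smaller ratios. The ratios for HU and for APH genes cannot be set against each other, since they depend on list size. A single peak is 0.00714% of the second APH list and 0.00125% of the first HU list. LIPA (chr10:89213569-89414557), the lysosomal acid lipase, had 36 and 30 HU peaks against 0 and 1 APH peaks, with a ratio of 13.95 (2.42 to 559). The interferon-induced genes IFIT1, IFIT1B, IFIT2 and IFIT3 overlap the annotated span of LIPA and share its peaks. RAB11A (chr15:65726054-65891989), a GTPase of recycling endosomes, had 29 and 26 against 1 and 1, a ratio of 5.81 (1.53 to 49.2). ATG5 (chr6:106045423-106325791), which conjugates ATG12 in autophagy, had 32 and 23 against 1 and 1. It overlaps PRDM1, the gene of a transcription factor of plasma cell differentiation.

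Among the other 7 HU-above genes the HU lists had 20 to 44 peaks and the APH lists 1 to 3. MACF1, a linker of actin and microtubules, had 44 and 20 HU peaks against 1 and 1. RDX, the membrane linker radixin, had 30 and 31 against 2 and 1, and ADAM19, a metalloprotease that overlaps CYFIP2 and NIPAL4, had 32 and 33 against 2 and 1. TEX14, a protein of germ cell bridges, had 33 and 29 against 2 and 1. DTNB, a dystrobrevin, had 30 and 27 against 2 and 1. RYR1, a calcium release channel that overlaps MAP4K1, had 28 and 29 against 2 and 1, and FAM107B had 40 and 35 against 3 and 2. The ratios of these 7 lay between 3.17 and 6.76. In the 10 genes named for HU the untreated lists had 0 to 2 peaks each. At ATG5 1 untreated list had 0.0462%, above the 0.0401% and 0.0329% under HU. At ADAM19 and MACF1 1 untreated list had 0.0418%, against 0.0401% and 0.0472% and against 0.0551% and 0.0286% under HU. HU was thus not apart from untreated cells at these genes. At the other genes named for HU both HU lists lay above both untreated lists.

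**Figure D3:**
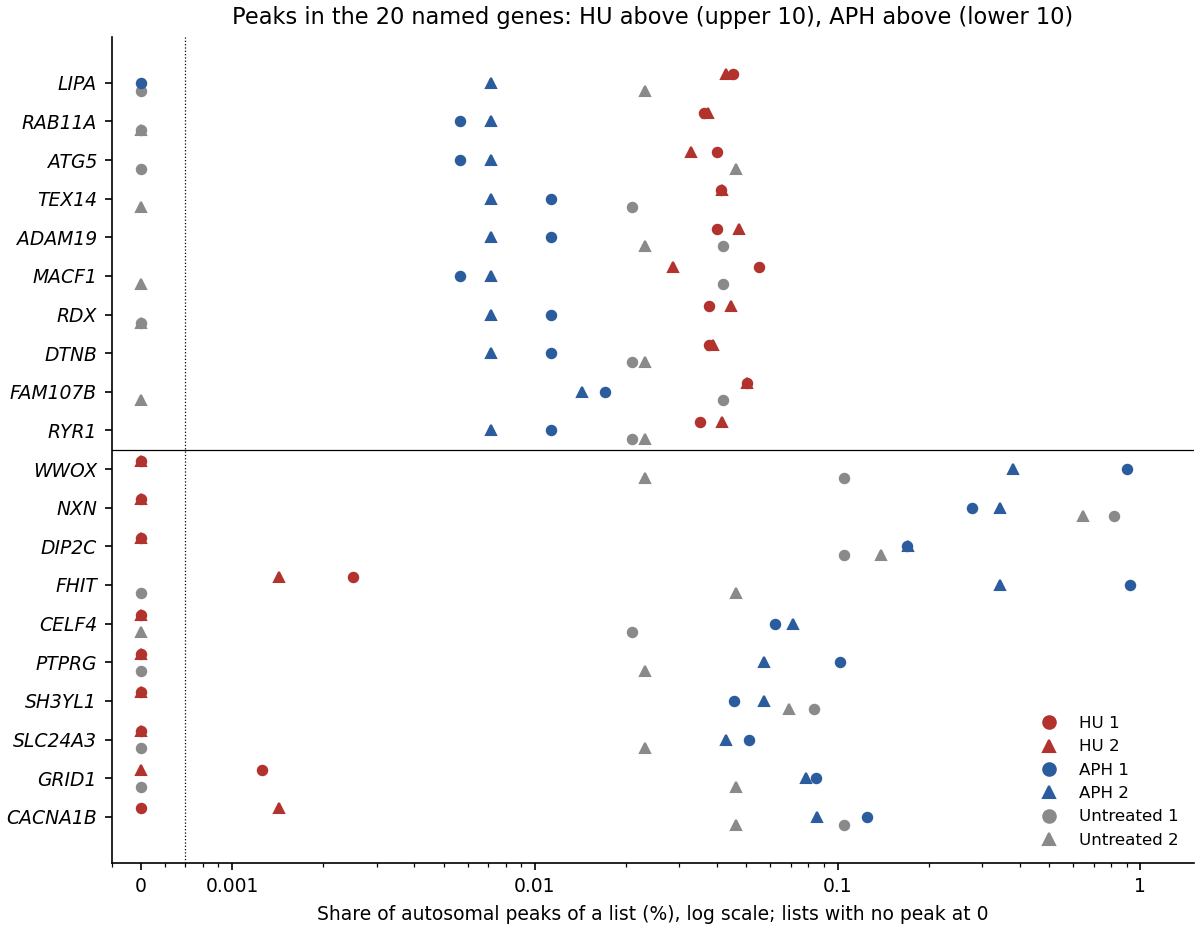
Share of the autosomal peaks of each list (x axis, percent, log scale, with lists that hold no peak placed at 0) in the 10 genes with the widest margin for HU and the 10 for APH. Points are single lists of HU, APH and untreated cells. WWOX and FHIT stand apart under APH, and NXN and SH3YL1 have their largest shares in untreated cells.

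Genes known from large CFSs held a larger share of APH than of HU peaks, and FHIT and WWOX made up much of the sum. Over 30 such genes, with a median length of 1266 kb, the APH lists had 449 and 187 peaks (2.54% and 1.33%), the HU lists 144 and 129 (0.180% and 0.184%), the untreated lists 24 and 22 (0.502% and 0.508%) and the MMS lists 62 and 74 (0.508% and 0.707%). APH was above in 12 genes (40%) and HU in 2 (6.67%), beside 8.06% and 27.8% over all genes and 33.3% and 8.25% over genes of at least 500 kb. The counts in CFS genes were thus near those of long genes in general. Of the 30, 9 genes had no peak under either drug, among them LRP1B, ERBB4 and NEGR1. Without FHIT and WWOX the APH lists had 126 and 86 peaks (0.714% and 0.614%), above the 0.178% and 0.183% under HU and overlapping the 0.443% and 0.621% under MMS. AUTS2, which acts in neurons, had 21 and 6 APH peaks against 11 and 6 HU peaks, and NRXN3, a synaptic adhesion protein, had 12 and 8 against 0 and 1.

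RAD51B, a recombination protein and 910 kb long, went the other way. It had 89 and 80 HU peaks (0.111% and 0.114%) and 12 and 8 APH peaks (0.0680% and 0.0571%), with 5 and 5 in untreated cells. This gene held 89 of the 144 and 80 of the 129 HU peaks of the whole list, and MACROD2, the other gene with HU above, had 1 and 1 HU peaks and no APH peak.

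Of 44 genes that act in B lymphocytes, HU was above in 22 (50%) and APH in 4 (9.09%), beside 27.8% and 8.06% over all genes. Only 3 of the 44 had no peak in the 4 lists, beside 5879 of all 18385 genes (32.0%). Their median length was 43.0 kb, beside 27.4 kb. The part of both in these counts was not tested. Their summed shares were 0.351 ± 0.00942% under HU and 0.215 ± 0.00831% under APH, and the untreated lists spread from 0.146% to 0.393% around both. POU2AF1, a coactivator of the octamer factors, had 22 and 21 HU peaks against 3 and 2. PAX5, which fixes B cell identity, had 17 and 19 HU peaks against 5 and 7 and was APH above by share, and POU2F2 had 24 and 24 against 10 and 0, with the lists overlapping. Ribosomal protein genes, short and active in every cell, had HU above in 29 of 76 (38.2%) and APH in 2 (2.63%). Their summed shares were 0.111 ± 0.000904% and 0.0476 ± 0.00330%, and 0.180 ± 0.0569% under MMS.

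Families of clustered or tissue-restricted genes, most of them short, had few peaks under both drugs. Over all 18385 genes, with a median length of 27.4 kb, 5879 (32.0%) had no peak in the 4 lists. Of 414 olfactory receptor genes (median 2.45 kb), 395 had none, and the summed shares were 0.0145 ± 0.00430% under HU and 0.0647 ± 0.0195% under APH. Untreated cells had 0.186 ± 0.0336% there. The 63 protocadherin genes overlap each other, and only 11 APH peaks and 5 HU peaks lay in them over both lists, so that APH above in 21 of them rests on few peaks. Of 55 keratin genes (median 7.10 kb), 44 had no peak and 1 had APH above. The replication-dependent histone genes, 69 in number with a median of 0.503 kb, had 63 without a peak. The part of gene length in these counts was not tested. The zinc finger genes of chromosome 19 had the larger summed share under APH, on a chromosome where HU was above. Of 246, HU was above in 30 (12.2%) and APH in 11 (4.47%), both below the 27.8% and 8.06% over all genes, and 111 had no peak. The summed shares were 0.213 ± 0.00636% under HU and 0.297 ± 0.0440% under APH. ZNF541 had 15 and 13 HU peaks against 0 and 1, while ZNF837 had 1 and 2 against 2 and 2.

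By chromosome, HU was above on 7 of 22 (31.8%) and APH on 10 (45.5%). Chromosome 19, with the most genes per Mb (23.7), had 4.57% and 4.91% of HU peaks and 3.63% and 2.45% of APH peaks, from 2.12% of the assembled bases. Chromosome 1 had 12.5 ± 0.199% under HU and 9.68 ± 0.285% under APH, and chromosome 12 had 6.03 ± 0.00804% and 4.75 ± 0.195%. On the side of APH, chromosome 18 had 2.01% and 2.58% of APH peaks and 1.45% and 1.27% of HU peaks, and its 3.23 genes per Mb were among the lowest densities. Chromosome 9 had 6.75 ± 0.635% under APH against 3.74 ± 0.0493% under HU, and chromosome 21 had 1.499 ± 0.101% against 0.925 ± 0.0319%. Both were densest in untreated cells, with 10.9 ± 0.172% on chromosome 9 and 2.55 ± 0.0547% on chromosome 21. Chromosomes 4, 11, 13, 17 and 22 had overlapping lists. Across the 22 chromosomes the ratio of HU to APH had a Spearman correlation of 0.40 with genes per Mb and 0.16 with GC content, given here as descriptions. The split of 7 to 10 became 14 to 8 among peaks found in both replicates and 10 to 6 when covered bases were counted.

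**Figure D4:**
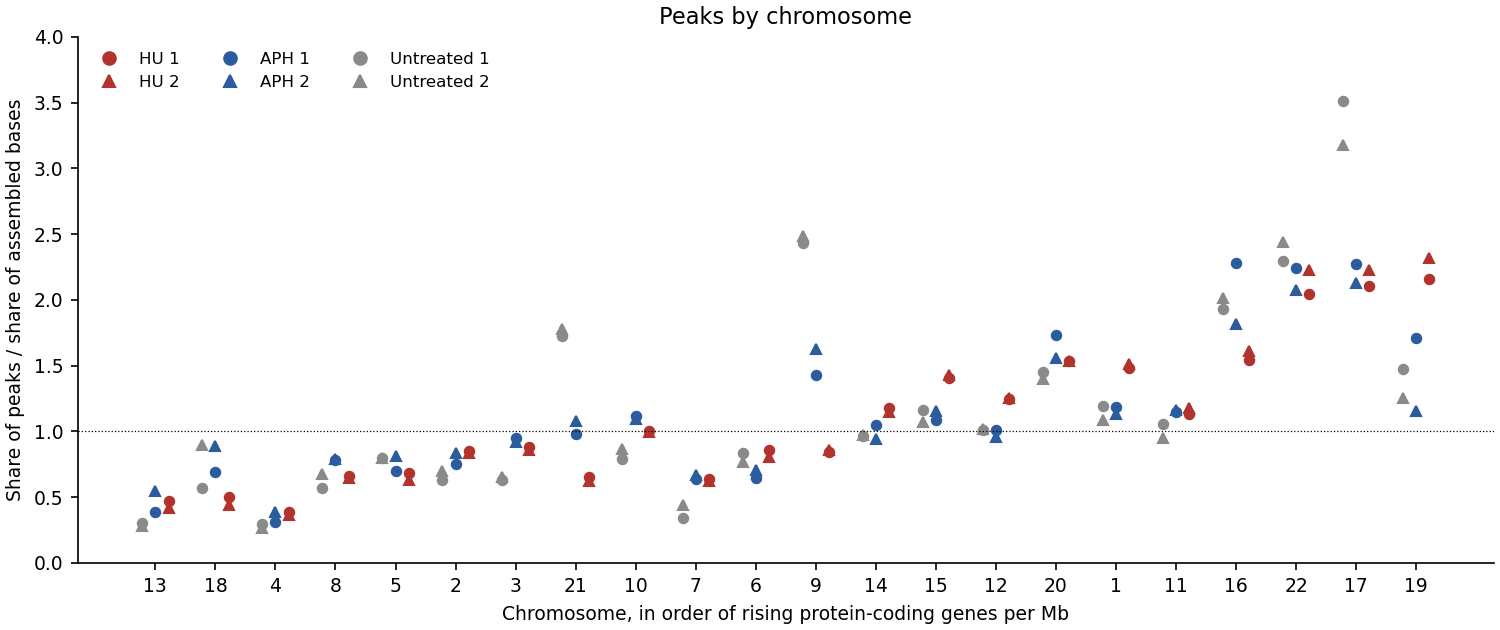
Share of the peaks of each list on a chromosome divided by the chromosome's share of assembled bases (y axis), with chromosomes in order of rising gene density (x axis). Points are single lists, and 1 (dotted) is an even spread. HU points lie above APH points on chromosome 19 and below them on chromosomes 9, 18 and 21, and untreated points stand well above both drugs on 9, 17 and 21.

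The sequence around the peaks differed between the drugs as well. The median GC content of the 500 bp around peak midpoints was 44.4% and 45% under HU and 47.4% and 46.0% under APH, against 40% over windows of the autosomes. The 1 Mb bins that hold the peaks had medians of 44.5% and 44.8% under HU and 44.9% and 44.1% under APH, with the lists overlapping. The lower GC of HU peaks was thus seen in the 500 bp around them and not in the medians of their bins. It was not confined to the 500 bp. From 2000 to 1900 bp before the midpoint GC was 46.0% and 46.5% under HU and 48.0% and 46.8% under APH. Across 955 bins the ratio of HU to APH also fell with bin GC (Spearman correlation -0.23). The lower GC in the 500 bp was present in each class of gene density with at least 1 start per bin. There the difference of the means ranged from -1.80 to -3 percentage points. With the fold enrichment required to reach 3 the medians were 46.8% and 47% under HU and 46.8% and 47.4% under APH, and the lists no longer stood apart. Nor did they with equal numbers of the strongest peaks, at 45.6% and 46% under HU and 47.4% and 46% under APH.

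Runs of at least 10 A or 10 T were more frequent at HU peaks. Such a run lay in the 500 bp around 18.4% and 17.9% of HU peaks and 9.87% and 9.80% of APH peaks, against 15.3% of autosomal windows. Untreated lists had 8.24% and 9.498% and MMS lists 9.44% and 10.5%. Both HU lists thus lay above the other 6, which ranged from 8.24% to 10.5%. For runs of at least 15 the shares were 7.08 ± 0.112% under HU and 3.25 ± 0.0954% under APH (SD, n = 2). Among peaks of 400 to 700 bp they were 16.2 ± 0.312% and 9.22 ± 0.198% for runs of 10. At 45 to 50% GC they were 22.3 ± 0.676% and 11.3 ± 0.212%, and at 50 to 55% GC 16.8 ± 0.516% and 6.82 ± 0.00192%. Only at 30 to 35% GC did the lists overlap, with 15.2 ± 0.384% and 14.1 ± 1.61%. HU was above in every class of gene density. This measure was added after the data were seen, and reads in such runs are hard to place uniquely.

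The difference reached beyond the peaks. In the 100 bp that follow the midpoint, a run began at 4.06% and 3.88% of HU peaks and 1.88% and 2.11% of APH peaks. From 1000 to 1100 bp away the shares were 6.21% and 6.32% under HU and 4.59% and 4.33% under APH, against 3.55% of windows of that length. All lists were lowest near the midpoint, and the HU lists were above the APH lists at every distance up to 2000 bp.

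**Figure D5:**
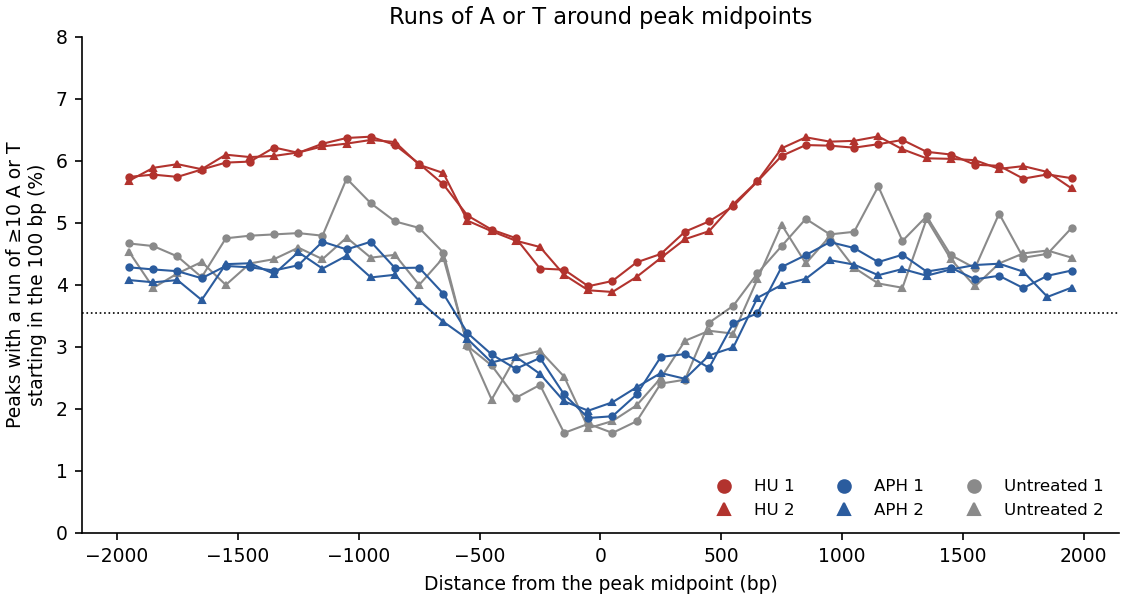
Share of peaks with a run of at least 10 A or 10 T that begins in a given 100 bp (y axis, percent) by distance from the peak midpoint in bp (x axis). Lines are single lists, and the dotted line is the share of all autosomal windows. Every list dips near the midpoint, and both HU lines lie above the APH and untreated lines throughout.

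The order of the drugs by gene density and gene length was the same in the selections of peaks that follow. With equal numbers of the strongest peaks, 14009 from each list, bins with at least 20 starts held 30.03% and 31.2% of HU and 18.8% and 15.0% of APH peaks. Genes of at least 500 kb held 0.564% and 0.628% of HU and 6.76% and 5.16% of APH peaks in these lists. Among peaks found in both replicates, the shares in those genes were 0.573% and 0.584% under HU and 5.01% and 4.93% under APH. With the fold enrichment required to reach 3, 439 and 1027 APH peaks were left, of which 7.97% and 3.99% lay in them, against 0.449% and 0.566% of HU peaks. At a q-value of at most 0.05 the shares were 11.3% and 3.28% of the few APH peaks and 0.943% and 0.854% of HU peaks. This filter was added and not planned at first. FHIT and WWOX held 8.25% of the first APH list under it and none of the second. Without these genes the shares were 3.09% and 3.28% under APH and 0.941% and 0.854% under HU.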

How the data were processed

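γH2AX ChIP-seq peak lists of 8 libraries were used, of which 4 were compared. The input library was not used. Per the study's methods, the authors used Bowtie2 and GRCh38 for paired-end alignment, discarded poorly mapped and duplicate reads, and ran MACS2 in broad mode on every replicate separately with input as control. The deposited lists give a fold enrichment as a ratio, a p-value and a q-value as −log10, and a score, which was not used. They hold no read numbers, so depth is unknown. Peaks past the uncorrected threshold (−log10 p of 3) and on chromosomes 1 to 22 were kept, each counted at its midpoint. Reads from low-complexity DNA are more easily lost in such filtering.

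Bins were 1 Mb with at least 50% assembled bases (2765 of 2887). Genes were 18385 protein-coding genes of GENCODE release 44 (readthrough genes and genes without an HGNC identifier left out). Bins were named with at least 5 and genes tested with at least 3 expected peaks, and the 5 bins, 10 genes and 3 chromosomes per direction with the widest log2 margin between the nearest lists (0.5 peaks added) were named, with bins within 2 Mb of a named one passed over, and for gene lists the 3 members with the most expected peaks. Other genes, such as RAD51B, AUTS2, NRXN3 and LRP1B, were chosen after their values were seen, and 1 member that the rule names is not reported here. Ratios of pooled peak numbers carry exact 95% intervals, and the floor for 0 is 3 counts per list. Intervals and floors cover counting error only. Differences of means were tested with a two-sided exact permutation test. The members, lists and tests were chosen with earlier results of these data known. The labels number the replicates 1 and 2 in each group without naming a shared batch. The deviations of HU1 from HU2 and APH 1 from APH 2 had a Pearson correlation of -0.13 over bins. Alternatives were stronger peaks, covered bases, other bins, filters and gene assignments, a replicate block and each list left out. Python 3.11.15, NumPy 2.4.6, pandas 2.3.3 and SciPy 1.17.1 were used.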

Additional observations from a re-analysis of the deposited data

Results flagged for a closer look

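In 5 classes both HU lists lay on one side of both untreated lists and both APH lists on the other. The difference between the drugs' departures from untreated cells was not tested. In bins with 1 to 4 gene starts HU minus untreated (18.9%) was -7.11 percentage points, APH minus untreated 3.64 and HU minus APH -10.8. In bins with 10 to 19 starts these values were 4.97, -1.70 and 6.66, with 29.1% in untreated cells. In genes of 300 to 500 kb (untreated 3.33%) HU minus APH was -2.96, and in genes of at least 500 kb (untreated 3.03%) it was -4.63. In the 30 large CFS genes (untreated 0.505%) HU minus APH was -1.76, of which FHIT and WWOX made up -1.27. The contrasts share the untreated lists and are not independent of each other.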

How the results depend on the processing

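The differences between the drugs in bins with at least 20 or no gene starts, genes of at least 500 kb or under 20 kb, median GC content and runs of A or T kept their sign under every alternative run, and none could go below p = 0.3333 in the exact permutation test. Their sizes moved. The GC difference went from -2 percentage points to -0.2 at a fold enrichment of at least 3 (exact permutation p = 1) and -0.9 with equal numbers of peaks (exact permutation p = 0.6667), where the lists were no longer apart. The difference in genes under 20 kb went from 1.39 to as much as 5.13, and in bins with no start from -1.88 to -8.42, both at a q-value of at most 0.05, where few APH peaks remain. In bins with at least 20 starts it went from 7.28 to as much as 17.8, at a fold enrichment of at least 3. Bins of 500 kb gave -6.06 for bins with no start. Classes were set by starts per Mb, so the lowest class of 2 Mb bins also took in bins with 1 start. Its difference was -0.77. Of 162 recomputed values, 143 kept their direction and stayed within 1.5 times where they were counts, and 19 counts moved further. The 143 include values fixed in advance, such as the differences of means under the replicate block. The causes of the moves were not tested except where bins or genes were redefined. At a fold enrichment of at least 3, APH was above in 86 bins, 36 genes and 6 chromosomes and HU in 101 genes. With equal numbers of the strongest peaks HU was above in 422 bins and 40 genes. Among peaks found in both replicates HU was above in 1091 bins, 122 genes and 14 chromosomes and APH in 382 bins. APH was above on 6 chromosomes by covered bases and on 6 at a q-value of at most 0.05. Bins with at least 5 expected peaks gave 484 with HU above and 291 with APH above, the reverse of the main order. Bins of 500 kb gave 1189 and 1327 (HU and APH above), bins of 2 Mb 396 and 478, and all genes 5103 and 1482, as more or fewer features were tested. With each list left out in turn, HU was above in 739 to 880 bins and APH in 864 to 1170, and the difference in genes of at least 500 kb was -5.23 to -4.03 percentage points. Leaving a list out loosens the rule for a call, so these bin counts could not fall.

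With a replicate block that paired HU1 with APH 1 and HU2 with APH 2, HU was above in 711 bins and 67 genes and APH in 866 bins and 165 genes. Pairing changes only the rule for a call, and the paired rule is looser than the main one. The counts could therefore not fall, and the differences of means stayed the same by construction. The crossed pairing, added after the data were seen because the deviations had a correlation of -0.13, gave 718 and 66 against 868 and 164. The small APH lists, with few peaks that passed a corrected threshold, limit what can be said of single genes and bins.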
